A study of Mus musculus with 6 samples.

Results

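Translation initiation factors are the proteins that place the ribosome on the start codon of a messenger RNA. Their genes were taken as all genes with a symbol that starts with Eif and a digit from 1 to 6, with the Eif2ak kinases set aside. This gave 43 genes of the 18193 with a probe set of their own, and 120 of the 45037 probe sets that are not array controls. A probe set is a group of short probes that together read a transcript, and 33 of the 43 genes were read by several of them. RNA came from CD73+ and CD73- AD-MSCs, mesenchymal stromal cells grown from groin fat of C57BL/6 mice, sorted by flow cytometry on the surface enzyme CD73 and taken at the fifth passage in culture. There were 3 Affymetrix mouse arrays for each subgroup. The labels do not say whether these are separate cultures, and p-values then rest on array-to-array spread alone, which may be technical. The comparison asks how the CD73+ subgroup differs in transcription from the CD73- subgroup, which carries no other treatment.

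Initiation begins when eIF2, bound to GTP, brings the first tRNA to the small ribosomal subunit together with eIF1, eIF1A, eIF3 and eIF5. The cap of the messenger RNA is bound by eIF4E, the scaffold eIF4G joins it to the helicase eIF4A, and eIF4B and eIF4H help the helicase. After the start codon is found, eIF5 triggers hydrolysis of GTP on eIF2, eIF5B joins the large subunit, and eIF2B recharges eIF2. The 4E-binding proteins hold eIF4E away from eIF4G, and phosphorylated eIF2 holds back eIF2B, which are the main brakes on protein synthesis in stressed or starved cells.

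The deposited values are on the log2 scale after RMA, and the array medians lay between 5.28 and 5.37. The median of the probe sets' mean levels was 5.33. Across probe sets, which are not independent replicates, r was 0.997 to 0.998 within a subgroup and 0.993 between subgroups. Stromal markers were present and most were higher in CD73+ AD-MSCs, with 7 of 11 measured genes past the threshold and none lower. Lum alone among them lay under the median of all probe sets. One of the higher genes, Nt5e, encodes CD73, on which the cells were sorted. Its brightest probe set read 7.73 ± 0.12 (CD73+) and 6.84 ± 0.45 (CD73-, SD, n = 3, limma, adjusted p = 0.0218). It was higher on 1 of its 3 probe sets, and the methods' t-test did not call the brightest. Markers of leukocytes, endothelial cells, adipocytes and epithelial cells had 0 of 16 genes past the threshold (limma, adjusted p), 2 at an unadjusted p under 0.05 and 0 past the methods' t-test, and 4 of the 16, Epcam, Cd3e, Kdr and Cd68, lay above the median level in both subgroups. Their defining markers Ptprc, Pecam1 and Adipoq had mean levels between 3.06 and 4.02, and those of Epcam were 6.55 (CD73+) and 6.30 (CD73-). The 12 poly-A control probe sets, which read added bacterial transcripts, differed by -0.93 on average (log2, CD73+ minus CD73-). Scaling every array to them moves the median difference of all probe sets to 0.93, and all 120 probe sets of initiation factors would then be higher in CD73+ AD-MSCs. Every difference given here is therefore relative to the deposited scale, on which that median was -0.000187. In bulk RNA, fewer cells of a type and less RNA per cell cannot be told apart.

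More initiation factor probe sets were lower than higher in CD73+ AD-MSCs on the deposited scale, which does not hold after scaling to the poly-A controls. At an adjusted p under 0.05 from limma, 14 of 120 were higher and 25 were lower. Of all 45037 probe sets 18.9% passed, 9.79% higher and 9.11% lower, against 32.5% of the initiation factor probe sets, 11.7% higher and 20.8% lower. The initiation factor transcripts are bright, and among the 22518 probe sets above the median level 33.5% passed, 17% higher and 16.5% lower. Of the 100 initiation factor probe sets above that level, 39% passed, 14% higher and 25% lower, and none of the 20 below it passed, with 5 of these under an unadjusted p of 0.05 and 0 past the methods' t-test. Against bright probe sets, the share that was lower was above its background and the share that was higher below it. That background is every probe set above the median, not matched further for level. Several of the lower probe sets read the same gene and are not independent. The median log2 difference over the 120 probe sets was -0.03.

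The sizes were modest. The log2 differences ran from -0.63 on a probe set of Eif5 to 0.90 on a probe set of Eif1ax. The values of the subgroups did not overlap on 66 of 120 probe sets, where 34.9% of all probe sets do not overlap, a share that is not matched for level. With median centring 10 were higher and 30 lower, so that the higher share of the calls depends on where 0 is set. Of the 39 calls, 23 held without any single array, 10 of them higher and 13 lower. The count of lower probe sets was 15 without CD73- replicate 2, 14 without CD73+ replicate 1, and 16 without CD73- replicate 1 or without CD73+ replicate 2. In these runs calls over all probe sets fell as well, from 8513 to 5683, 5319, 6119 and 5686 in the same order. A call was ended by the loss of each of the 6 arrays in turn for 8 probe sets, which are named with their genes.

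**Figure D1:**
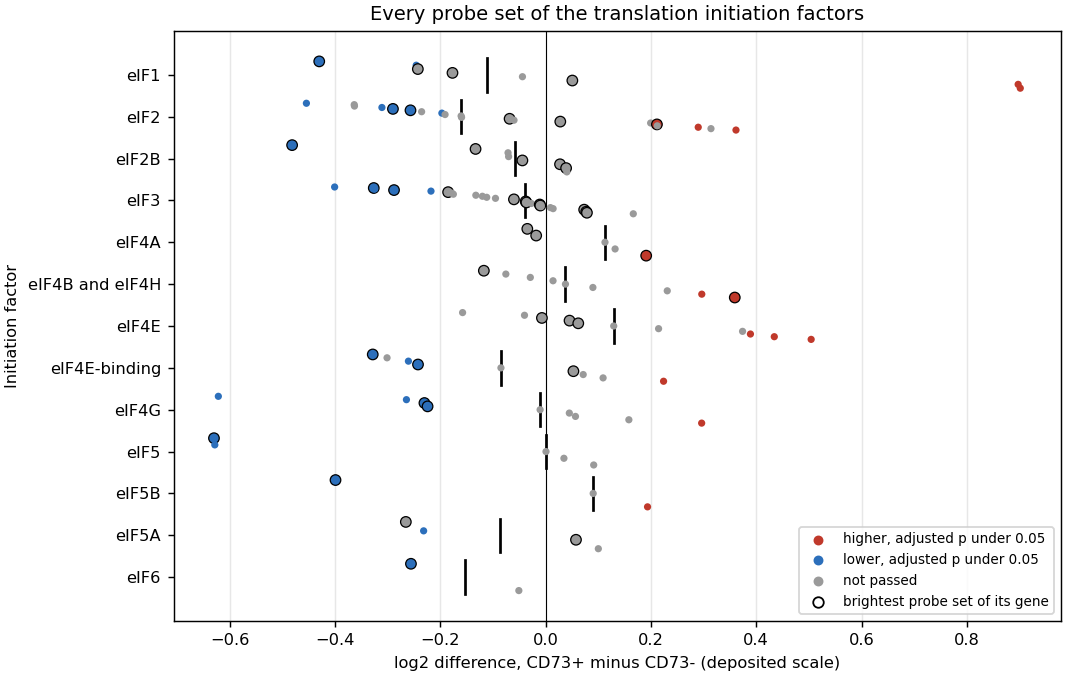
Log2 difference, CD73+ minus CD73- AD-MSCs (3 arrays each), on the horizontal axis for each of the 120 probe sets, in rows by initiation factor, a black bar marking the median of a row and a black outline on the brightest probe set of each gene. Red marks higher and blue lower probe sets by limma (adjusted p under 0.05, deposited scale), and the poly-A scaling would put all 120 above 0; the points run from -0.63 for Eif5 to 0.90 for Eif1ax.

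Read from the brightest probe set alone, 3 genes were higher and 13 were lower of 43 (limma, adjusted p under 0.05), a direction that is lost after scaling to the poly-A controls. The higher genes were Eif4b, Eif2s3x and Eif4a1. The lower ones were Eif5, Eif2b3, Eif1ad, Eif5b, Eif4ebp1, Eif3d, Eif2s2, Eif3a, Eif2d, Eif6, Eif4enif1, Eif4g2 and Eif4g3. Over all genes read this way 22.8% passed, 10.1% higher and 12.6% lower. The initiation factors stood at 6.98% higher and 30.2% lower. All but Eif4a3 were read above the median level, so that this background is not matched for level. Among all probe sets above that level 17% were higher and 16.5% lower. The count of higher genes was 1 whichever of the 6 arrays was left out, and also with median centring. Eif4b was the gene left each time.

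**Figure D2:**
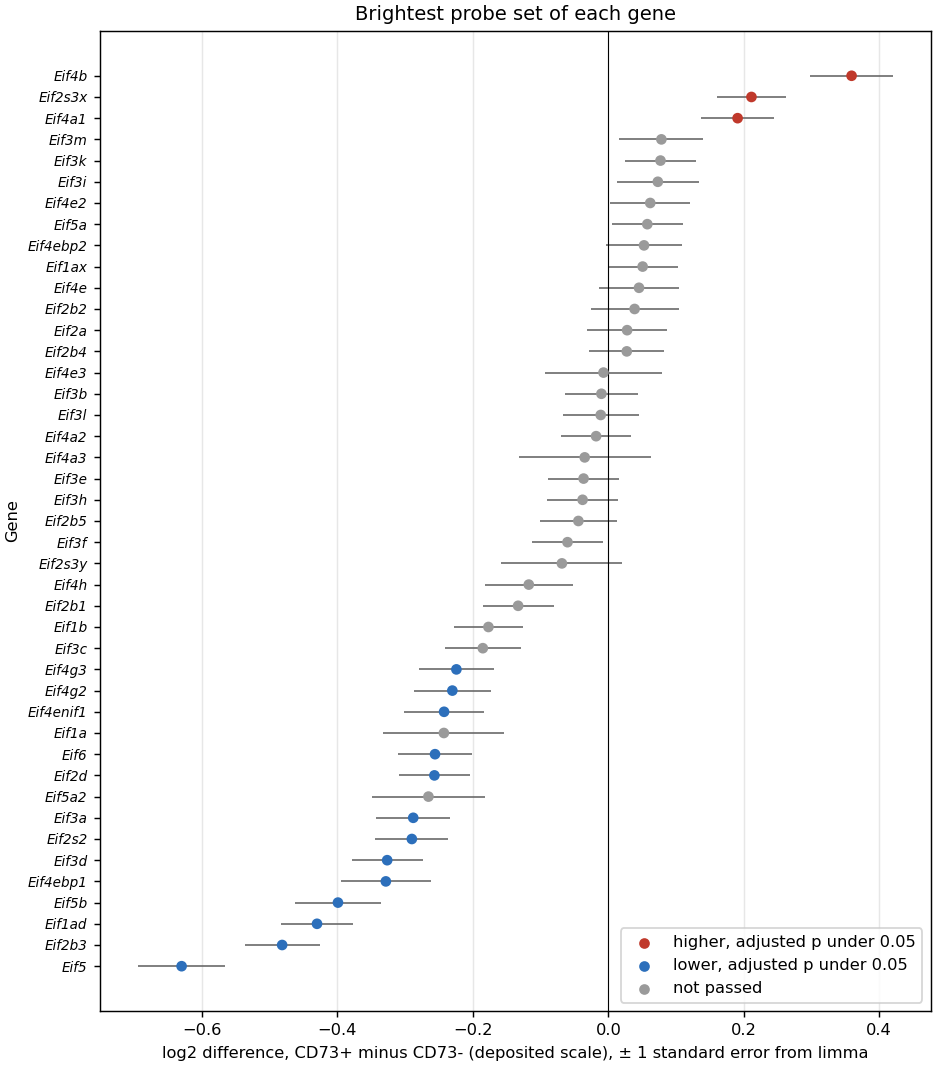
Log2 difference, CD73+ minus CD73- AD-MSCs, on the horizontal axis for the brightest probe set of each of the 43 genes, ordered by value, with bars of ± 1 standard error (limma, 3 arrays a subgroup). On the deposited scale Eif4b, Eif2s3x and Eif4a1 stand at the top in red (higher) and 13 genes down to Eif5 at -0.63 in blue (lower), a split that scaling to the poly-A controls turns to all higher.

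Probe sets of the same gene often gave different calls. Among the 33 genes with several probe sets, all passed in the same direction for 1 gene (Eif1ad). For 16 genes some passed and the others did not, for 13 none passed, and for 3 genes (Eif2s2, Eif4g2 and Eif5b) probe sets passed in opposite directions. These classes hold 3.03%, 48.5%, 39.4% and 9.09% of the 33 genes, and 6.7%, 32.5%, 58.6% and 2.22% of the 9010 genes with several probe sets on the array. That background is matched neither for level nor for the number of probe sets of a gene, and both bear on these shares. A difference in calls is not in itself a difference in values, so each of the 77 other probe sets was set against the brightest probe set of its gene on the same array. Limma on these differences, fitted over all 16752 such pairs of the array, found that 17 of 77 gave a different subgroup difference from the brightest, 15 of them more positive and 2 more negative. Over all pairs, which are not matched for level, 15.3% passed, 10% more positive and 5.32% more negative. The 17 belong to 10 genes, which are Eif1ax, Eif2s2, Eif3d, Eif4b, Eif4h, Eif4e, Eif4e2, Eif4g2, Eif5 and Eif5b.

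These differences within a gene do not move when a constant is added to a whole array. The count was 17 after scaling to the poly-A controls as well, 16 with quantile normalization and 18 with cyclic loess. It was 10 without CD73- replicate 2 or without CD73+ replicate 2, and 11 without CD73- replicate 1 or without CD73+ replicate 1. The 10 pairs that held without any single array belong to Eif1ax, Eif2s2, Eif3d, Eif4g2, Eif5 and Eif5b. For beta-actin, the probe set at the 3′ end exceeded that at the 5′ end by 0.084 ± 0.014 (SD, n = 3) on the log2 scale in the CD73+ arrays and by 0.19 ± 0.028 (SD, n = 3) in the CD73- arrays. The same difference for Gapdh was -0.27 ± 0.035 (SD, n = 3) and -0.30 ± 0.023 (SD, n = 3) in the same order, a smaller gap of opposite sign. The part of such a shift along the transcript in these pairs was not tested. Where the probes of each set lie in the transcripts, and their sequences, were not used here.

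**Figure D3:**
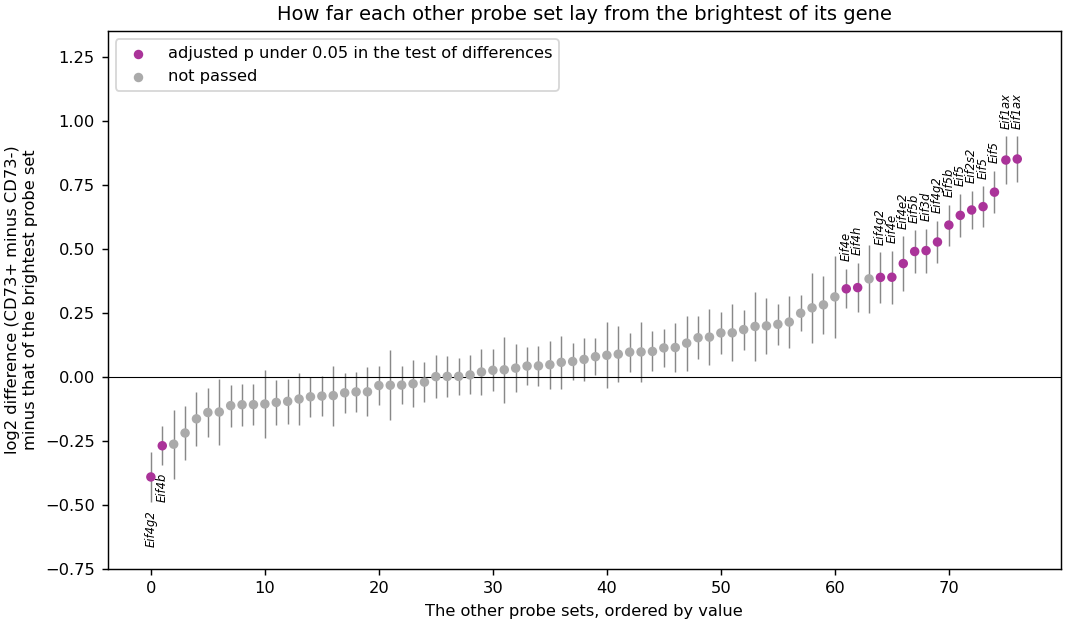
For each of the 77 other probe sets, ordered from left to right, the vertical axis gives its log2 difference (CD73+ minus CD73-) minus that of the brightest probe set of its gene, with bars of ± 1 standard error (limma, 3 arrays a subgroup). Purple points passed an adjusted p under 0.05 over all 16752 pairs of the array; 15 of them lie above 0, up to 0.85 for Eif1ax, and 2 below it, for Eif4g2 and Eif4b.

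The largest gaps to a brightest probe set lay in the eIF1 group, on Eif1ax, whereas the whole spread over the probe sets of a gene was larger for Eif4g2 (0.92) than for Eif1ax (0.85). Eif1ax, the X-linked gene of eIF1A, which keeps the small subunit open for scanning, was level on its brightest probe set and higher on both of the others. On 1449576_at it read 7.99, 8.00 and 7.78 in CD73+ and 7.09, 7.02 and 6.95 in CD73- AD-MSCs. All CD73+ arrays stood above all CD73- arrays, a 1.87-fold difference (limma, log2 0.90, standard error 0.078, adjusted p = 0.000457). The other, 1437071_at, read 6.54, 6.59 and 6.53 against 5.51, 5.75 and 5.71, a log2 difference of 0.90 as well. The brightest, 1419736_a_at, read 10.94, 10.93 and 10.94 against 10.90, 10.89 and 10.86, with a log2 difference of 0.05 and a 95% interval from -0.07 to 0.17. The gap to the brightest was 0.85 on the log2 scale for both (adjusted p = 0.0014 and 0.00148 from limma), and it held without any single array.

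Eif1a, the other gene of eIF1A, had a log2 difference of -0.24 on its brightest probe set (limma, adjusted p = 0.11) and of -0.04 on the other. Its brightest probe set read 10.87, 11.00 and 11.07 in CD73+ and 11.37, 11.22 and 11.09 in CD73- AD-MSCs, a spread within CD73- that is as wide as the gap between the subgroups. Eif1ad, which shares the domain of eIF1A, fell on both of its probe sets. On the brighter it read 10.13, 10.09 and 10.10 in CD73+ against 10.52, 10.58 and 10.52 in CD73- AD-MSCs, so that it fell by 0.43 on the log2 scale (limma, standard error 0.054, adjusted p = 0.0018). On the dimmer it fell by 0.25 (limma, adjusted p = 0.0287), a call that ended without any single array except CD73- replicate 3 (adjusted p from limma up to 0.0911). Eif1b, a close relative of the start codon selector eIF1, had -0.18 and missed the threshold narrowly (limma, adjusted p = 0.0508), although its subgroups did not overlap. Eif1 itself had no probe set annotated to it alone.

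**Figure D4:**
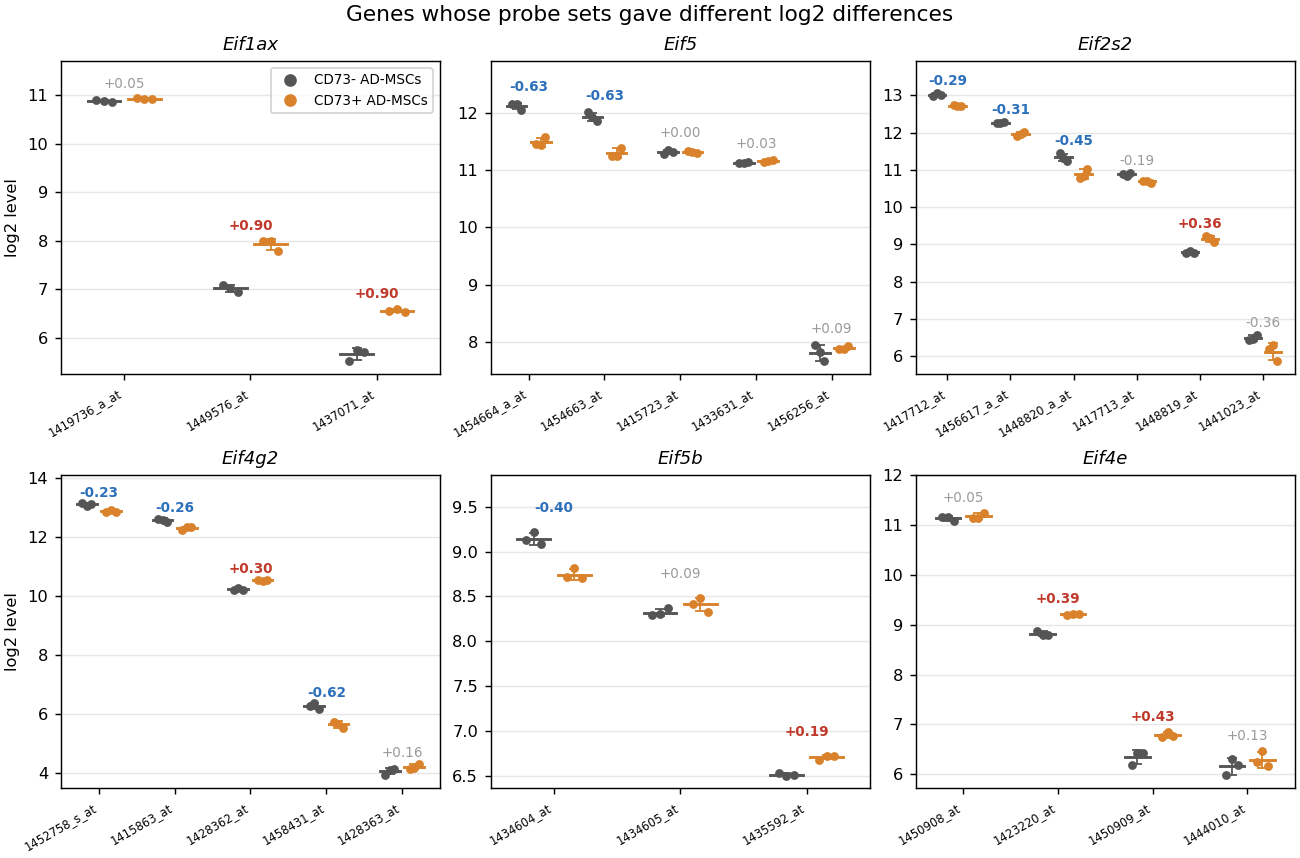
Log2 level on the vertical axis of every probe set of Eif1ax, Eif5, Eif2s2, Eif4g2, Eif5b and Eif4e, brightest on the left, with 1 point per array, a line at each subgroup's mean and a bar for its SD (n = 3). The number over each probe set is its log2 difference on the deposited scale, in red or blue where it passed. Eif1ax goes from 0.05 to 0.90 and Eif5 from -0.63 to values near 0. These gaps within a gene do not change when a constant is added to a whole array, as in scaling to the poly-A controls.

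Eif2s1, the alpha subunit of eIF2, had no probe set annotated to it alone. The beta and gamma subunits moved in opposite directions on the deposited scale. Eif2s2, the beta subunit, was mostly lower, and Eif2s3x, the gamma subunit that holds GTP and the tRNA, was higher. Both read higher once scaled to the poly-A controls. Eif2s2 fell on 3 of 6 probe sets. The brightest, 1417712_at, read 12.74, 12.73 and 12.71 in CD73+ against 12.98, 13.06 and 13.01 in CD73- AD-MSCs, and fell by 0.29 (limma, standard error 0.054, adjusted p = 0.00904). On 1448819_at the same gene read 9.22, 9.17 and 9.06 against 8.77, 8.83 and 8.76, and rose by 0.36 (limma, standard error 0.064, adjusted p = 0.00727). Neither pair of subgroups overlaps, and the gap between these probe sets was 0.65 (limma, adjusted p = 0.00179) and held without any single array. The other probe sets that fell did so by 0.31 and 0.45, the latter not called by the methods' t-test, and those that did not pass had -0.19 and -0.36.

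Eif2s3x was one of the steadier members across its probe sets, with log2 differences of 0.21, 0.29 and 0.21. The second, 1423744_x_at, read 11.01, 10.98 and 10.95 in CD73+ against 10.65, 10.72 and 10.71 in CD73- AD-MSCs (limma, adjusted p = 0.00977). The call on the brightest (limma, adjusted p = 0.0267) ended without any single array (adjusted p from limma 0.0541 to 0.0984) and with median centring, and the dimmest did not pass. Eif2s3y, its Y-linked counterpart, did not pass on either probe set. On the brightest it read 10.11, 10.08 and 10.17 in CD73+ and 10.36, 10.18 and 10.03 in CD73- AD-MSCs, with overlapping subgroups (log2 difference -0.07, adjusted p = 0.686 from limma), and the other, a dim one, had 0.31 (limma, adjusted p = 0.0974). Of the sex-linked genes beside it, Kdm5d had -0.01 and Xist -0.03, neither of which passed, with mean levels of Xist of 4.58 and 4.61, below the median of all probe sets. Uty, also Y-linked, fell by 0.51 (limma, adjusted p = 0.00197).

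Factors that deliver a first tRNA apart from eIF2 were lower or did not pass. Eif2d fell by 0.26 and 0.20 on its brightest probe sets (adjusted p = 0.0134 and 0.0407 from limma), and all 6 of its probe sets had negative differences. The first call ended without CD73+ replicate 1 (limma, adjusted p = 0.0601), and the second without any single array (0.073 to 0.135), with quantile normalization (0.0685) and with cyclic loess (0.066). Eif2a, which despite its symbol is not a subunit of eIF2, had 0.03, -0.24 and 0.20, none of which passed.

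Of the 5 subunits of eIF2B, the exchange factor of eIF2, Eif2b3 passed by limma, and the methods' t-test called Eif2b1 as well. Eif2b3 encodes the gamma subunit and was read by 1 probe set, at 9.28, 9.22 and 9.26 in CD73+ against 9.77, 9.74 and 9.69 in CD73- AD-MSCs. It fell by 0.48 (limma, standard error 0.055, adjusted p = 0.00129), a ratio of 0.716, and kept its call without any single array. The other subunits lay close to 0 on the deposited scale. Their 7 probe sets ran from -0.13 for Eif2b1, whose subgroups did not overlap (limma, adjusted p = 0.133), to 0.04 for Eif2b2. The catalytic subunit Eif2b5 had -0.04 with a 95% interval from -0.18 to 0.09.

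eIF3, the large scaffold that holds the small subunit and the messenger RNA, had 5 of 27 probe sets lower and none higher by limma. These 18.5% compare with 9.11% of all probe sets and 16.5% of bright ones that were lower. In either direction 18.9% of all and 33.5% of bright probe sets passed. The direction turns with the poly-A scaling. The 5 probe sets belong to 3 of its 11 measured subunits, Eif3a, Eif3c and Eif3d. Eif3a, the core subunit, read 12.48, 12.52 and 12.45 in CD73+ against 12.81, 12.74 and 12.76 in CD73- AD-MSCs on the brightest of its probe sets and fell by 0.29 (limma, adjusted p = 0.00972). Its dimmest, 1416661_at, fell by 0.40 (limma, adjusted p = 0.00395), while those between had -0.04 and -0.18. Eif3d, which can bind the cap, read 11.61, 11.60 and 11.63 against 11.96, 11.96 and 11.91 and fell by 0.33 (limma, standard error 0.052, adjusted p = 0.00489). Its second probe set lay below the median level and had 0.17, which did not pass, and the gap of 0.49 to the brightest passed (limma, adjusted p = 0.00802).

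Eif3c, the other core subunit, was negative on all 4 probe sets, with differences of -0.19, -0.18, -0.32 and -0.22 from the brightest to the dimmest. The subgroups did not overlap on any of them, and the latter pair passed (adjusted p = 0.0197 and 0.0298 from limma). The first of these calls ended without replicate 1 or 2 of either subgroup (adjusted p from limma up to 0.079), and the other without any single array (0.0553 to 0.117). The remaining subunits Eif3b, Eif3e, Eif3f, Eif3h, Eif3i, Eif3k, Eif3l and Eif3m had no probe set past the threshold, and their differences ran from -0.13 to 0.08. Eif3b, which carries an RNA-binding domain of the core, read 10.71, 10.70 and 10.65 against 10.67, 10.71 and 10.72. Its 95% interval ran from -0.14 to 0.12, so that a change as large as that of Eif3d lies outside it.

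**Figure D5:**
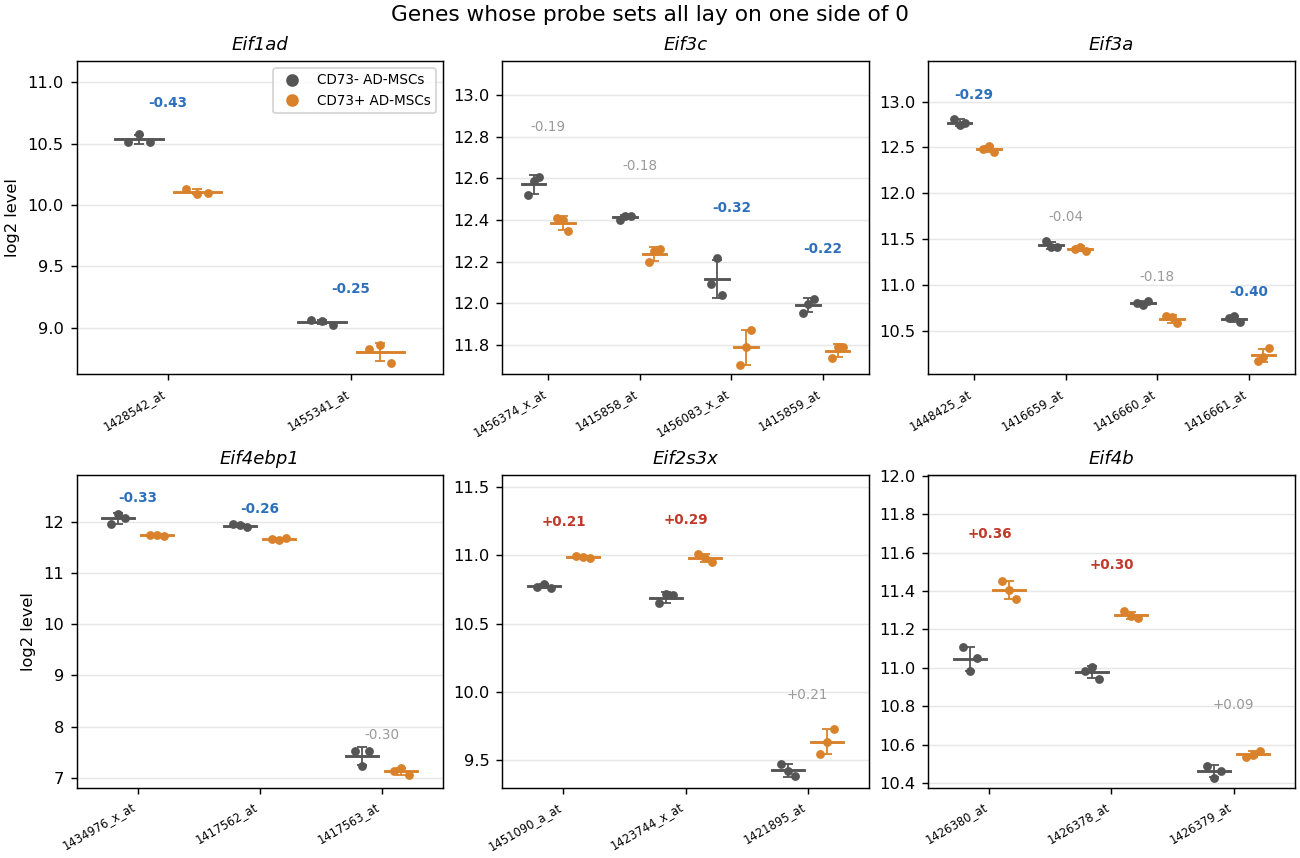
Log2 level on the vertical axis of every probe set of Eif1ad, Eif3c, Eif3a, Eif4ebp1, Eif2s3x and Eif4b, drawn as 1 point per array, a line at each subgroup's mean and a bar for its SD (n = 3), brightest on the left. The number over each is its log2 difference on the deposited scale; all are below 0 for Eif1ad, Eif3c, Eif3a and Eif4ebp1 (down to -0.43) and above 0 for Eif2s3x and Eif4b (up to 0.36), and all would be above 0 after scaling to the poly-A controls.

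Of the helicases and their helpers, 1 of 5 probe sets of eIF4A and 2 of 9 of eIF4B and eIF4H were higher by limma, all of them in Eif4a1 and Eif4b. Eif4b, which stimulates the helicase, read 11.45, 11.40 and 11.36 in CD73+ against 11.11, 10.98 and 11.05 in CD73- AD-MSCs on the brightest of its probe sets. It rose by 0.36 there (limma, standard error 0.061, adjusted p = 0.00622) and by 0.30 on the second (limma, adjusted p = 0.0078), and both calls held without any single array. The third had 0.09, which did not pass, and its gap to the brightest was -0.27 (limma, adjusted p = 0.0481), which ended without any single array (0.0559 to 0.17). Eif4a1, the main helicase, rose by 0.19 on its brightest probe set, from 12.53, 12.58 and 12.58 in CD73- to 12.74, 12.73 and 12.80 in CD73+ AD-MSCs. Its call was the weakest of the higher genes (limma, adjusted p = 0.0471), ended without any single array (0.0732 to 0.125) and with median centring, and its other probe sets had 0.13 and 0.11.

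Eif4a2, the paralog of Eif4a1, was read by 1 probe set at 11.93, 11.96 and 11.93 against 11.96, 11.96 and 11.96. Its log2 difference was -0.02, with a 95% interval from -0.14 to 0.10 that does not reach the value of Eif4a1. Whether the paralogs differ was not tested. Eif4a3, a helicase of the exon junction complex, lay below the median level on the probe set annotated to it alone (-0.03, adjusted p = 0.864 from limma). None of the 6 probe sets of Eif4h, which shares the role of Eif4b, passed. Its differences ran from -0.12 to 0.23, the latter on its dimmest probe set, with a gap of 0.35 to the brightest (limma, adjusted p = 0.044). That gap ended without any single array except CD73- replicate 3 (adjusted p from limma up to 0.127).

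Eif4e, the cap-binding protein and a growth-limiting factor in many cells, rose on its middle probe sets and was level on the brightest. On 1423220_at it read 9.20, 9.22 and 9.21 in CD73+ against 8.88, 8.80 and 8.79 in CD73- AD-MSCs. It rose by 0.39 there (limma, standard error 0.055, adjusted p = 0.00296) and by 0.43 on 1450909_at (limma, adjusted p = 0.00984), and both calls held without any single array. The methods' t-test did not call 1450909_at. The brightest, 1450908_at, read 11.14, 11.15 and 11.24 against 11.15, 11.16 and 11.08, with overlapping subgroups and a difference of 0.05. The gaps to it were 0.34 and 0.39 (adjusted p = 0.0206 and 0.0399 from limma). The first ended without CD73- replicate 2 or CD73+ replicate 1 or 2, and the second without any of these or CD73- replicate 1 (adjusted p from limma up to 0.133).

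Eif4e2, a cap-binding repressor of translation, showed a similar order. Its brightest probe set had 0.06, and 1455108_at read 6.62, 6.36 and 6.30 in CD73+ against 5.87, 5.86 and 6.04 in CD73- AD-MSCs, a rise of 0.50 (limma, standard error 0.097, adjusted p = 0.0103). The methods' t-test did not call this rise. The gap of 0.44 passed (limma, adjusted p = 0.0273) but ended without replicate 1 or 2 of either subgroup (up to 0.0976). The remaining probe sets of Eif4e2 had -0.16, 0.21 and 0.37, none of which passed. Eif4e3, an atypical member of the family, had -0.01 and -0.04.

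The promoter of Eif4e is known as a target of Myc through the E-box, a short palindrome, so promoters of the initiation factors were searched for its letters. RefSeq promoters (build GRCm38.p6, 250 bases before to 50 after a gene's start) were matched for 34 of the 43 genes. The motif CACGTG, which reads the same on both strands, stood in a promoter of 9 of these 34 genes (26.5%), against 8.09% of all 27025 genes with a promoter. These were Eif1b, Eif3a, Eif3f, Eif3k, Eif4a1, Eif4e, Eif4h, Eif5a and Eif5a2. TGATGNAAT, a composite element of C/EBP and ATF factors that was searched on both strands, stood in none of the 34, against 1.08% of all genes. A match is a description of letters and does not show that a protein binds. The stretches are shown for the genes with a called probe set and the motif wholly before the start, with the E-box in capitals, to set the letters beside the values of these genes. The motif of Eif3a does not lie before its start, so its stretch is not shown. They lie at chr3:138527018-138527249 on the plus strand for Eif4e, from the later of its listed starts, at chr11:69672567-69672652 on the minus strand for Eif4a1, and at chr3:28781095-28781205 on the plus strand for Eif5a2.
Eif4e: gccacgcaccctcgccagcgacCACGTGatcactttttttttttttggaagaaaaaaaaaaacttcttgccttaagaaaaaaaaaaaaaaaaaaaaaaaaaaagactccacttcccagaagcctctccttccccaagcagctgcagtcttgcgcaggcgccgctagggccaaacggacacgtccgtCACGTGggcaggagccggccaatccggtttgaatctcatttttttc
Eif4a1: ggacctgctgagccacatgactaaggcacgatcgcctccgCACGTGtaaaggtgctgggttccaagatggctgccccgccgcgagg
Eif5a2: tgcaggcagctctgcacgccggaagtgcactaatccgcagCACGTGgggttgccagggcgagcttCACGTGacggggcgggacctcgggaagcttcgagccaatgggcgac
The genes with the motif did not move together. Eif4e and Eif4a1 had probe sets that rose, Eif5a2 and Eif3a had probe sets that fell, and Eif1b, Eif3f, Eif3k, Eif4h and Eif5a had none past the threshold.

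Of the brakes on eIF4E, Eif4ebp1 and Eif4enif1 had probe sets that fell and Eif4ebp2 had 1 that rose, and whether they differ was not tested. Eif4ebp1, the 4E-binding protein that mTOR switches off, read 11.75, 11.75 and 11.72 in CD73+ against 11.96, 12.16 and 12.08 in CD73- AD-MSCs on the brightest of its probe sets. It fell by 0.33 there (limma, standard error 0.067, adjusted p = 0.0131) and by 0.26 on the second (limma, adjusted p = 0.0127), directions that turn with the poly-A scaling. The second call ended without replicate 2 of either subgroup or CD73+ replicate 1 (adjusted p from limma up to 0.0557), and the dimmest probe set had -0.30 and did not pass (limma, adjusted p = 0.0644). Eif4ebp2, its paralog, was higher on 1 of 5 probe sets. That one read 7.01, 7.00 and 7.01 against 6.75, 6.72 and 6.89, a rise of 0.22 (limma, adjusted p = 0.0487) that ended without any single array except CD73- replicate 3 (up to 0.156), and with quantile normalization (0.0902), median centring (0.0909) or cyclic loess (0.0609). Eif4enif1, which carries eIF4E into the nucleus and to sites of messenger RNA decay, fell by 0.24 (limma, adjusted p = 0.0277), a call that ended without any single array (0.0558 to 0.0955).

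Eif4g2, a scaffold related to eIF4G that lacks the site for eIF4E, had calls in both directions among its 5 probe sets. The brightest, 1452758_s_at, read 12.85, 12.93 and 12.86 in CD73+ against 13.14, 13.07 and 13.11 in CD73- AD-MSCs and fell by 0.23 (limma, adjusted p = 0.0282). The second fell by 0.26 (limma, adjusted p = 0.0205). On 1428362_at the gene read 10.55, 10.50 and 10.55 against 10.22, 10.27 and 10.22 and rose by 0.30 (limma, standard error 0.054, adjusted p = 0.00833). On 1458431_at, a dim probe set, it fell by 0.62, from 6.28, 6.37 and 6.17 in CD73- to 5.75, 5.68 and 5.53 in CD73+ AD-MSCs (limma, adjusted p = 0.00214). The subgroups did not overlap on any of these probe sets, which does not test whether the probe sets differ from one another. In the test of differences, the gap of the second to the brightest was -0.03 and did not pass (limma, adjusted p = 0.815).

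The gap of 0.53 between 1428362_at and the brightest Eif4g2 probe set (limma, adjusted p = 0.00496) held without any single array. Those of the dim probe sets, -0.39 and 0.39, passed (adjusted p = 0.0321 and 0.033 from limma). The former ended without CD73- replicate 1 or 2 or CD73+ replicate 2 or 3 (up to 0.108), and the latter without any single array except CD73- replicate 3 (up to 0.0957). The fall on the brightest ended without any single array (0.0555 to 0.109), and that on the second without replicate 1 or 2 of either subgroup (up to 0.0876). Eif4g1 had no probe set annotated to it alone. Eif4g3, a full-length eIF4G, fell by 0.22 on its brightest probe set, from 9.54, 9.60 and 9.51 to 9.31, 9.36 and 9.31 (limma, adjusted p = 0.0291). This call ended without any single array except CD73- replicate 3 (up to 0.107), and the other probe sets of Eif4g3, near or below the median level, had between -0.01 and 0.06.

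Eif5, the factor that triggers hydrolysis of GTP on eIF2 and so checks the start codon, fell the most of the brightest probe sets. On 1454664_a_at it read 11.45, 11.43 and 11.57 in CD73+ against 12.15, 12.14 and 12.05 in CD73- AD-MSCs, a fall by 0.63 (limma, standard error 0.065, adjusted p = 0.000832) to a ratio of 0.646. On 1454663_at it read 11.25, 11.25 and 11.39 against 12.00, 11.91 and 11.86 and also fell by 0.63. The other 3 probe sets did not follow, although 2 of them are bright. On 1415723_at the gene read 11.33, 11.31 and 11.30 against 11.28, 11.35 and 11.31, with a 95% interval of the difference from -0.12 to 0.13. The differences of the others were 0.03 and 0.09. The gaps to the brightest were 0.63, 0.66 and 0.72 (adjusted p = 0.00267, 0.00203 and 0.00178 from limma), and all held without any single array.

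Eif5b, the GTPase that joins the large subunit, split in the same manner. Its brightest probe set, 1434604_at, read 8.72, 8.81 and 8.70 in CD73+ against 9.13, 9.22 and 9.08 in CD73- AD-MSCs and fell by 0.40 (limma, standard error 0.064, adjusted p = 0.0048). The second had 0.09, with overlapping subgroups. The third, 1435592_at, read 6.69, 6.72 and 6.72 against 6.53, 6.50 and 6.51 and rose by 0.19 (limma, adjusted p = 0.039), a call that ended without any single array (0.0703 to 0.126) and with quantile normalization (0.0684), median centring (0.156) or cyclic loess (0.0521). The gaps to the brightest, 0.49 and 0.59 (adjusted p = 0.00689 and 0.00295 from limma), held without any single array.

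Eif5a, which carries hypusine and acts mainly in elongation, had 0.06 and 0.10 on its probe sets, without overlap of the subgroups on either but short of the threshold (adjusted p = 0.542 and 0.368 from limma). Its paralog Eif5a2 leaned the other way on the deposited scale. The brighter of its probe sets had -0.27 (limma, adjusted p = 0.0676), and the dimmer read 5.98, 6.05 and 5.91 in CD73+ against 6.25, 6.15 and 6.23 in CD73- AD-MSCs and fell by 0.23 (limma, adjusted p = 0.0408). That call ended without any single array (0.0609 to 0.12). Eif6, which keeps the large subunit from joining too early, fell by 0.26 on its brightest probe set (limma, standard error 0.055, adjusted p = 0.0166), from 11.27, 11.33 and 11.31 in CD73- to 11.08, 11.05 and 11.01 in CD73+ AD-MSCs. It lost its call without CD73- replicate 2 or CD73+ replicate 2 (up to 0.0663), and its other probe set had -0.05.

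Regulators that act on these factors moved in both directions. Of 30 measured regulators, read from the brightest probe set, 5 were higher and 10 were lower (limma, adjusted p under 0.05). Their median log2 difference was -0.03. Of all genes 10.1% were higher and 12.6% lower. All 30 regulators lay above the median level, where 17% of probe sets were higher and 16.5% lower. Scaling to the poly-A controls shifts all of their differences upwards by 0.93. Ppp1r15a and Ppp1r15b, which bring a phosphatase to phosphorylated eIF2, fell by 0.75 and 0.42, and were lower on 1 of 1 and 2 of 2 probe sets. Ddit3 and Atf4, transcription factors of the stress response downstream of eIF2, fell by 0.77 and 0.33. Ddit3 was lower on 1 of 2 probe sets and Atf4 on 3 of 3. The eIF2 kinases Eif2ak3 and Eif2ak2 rose by 0.48 and 0.20, and were higher on 2 of 3 and 3 of 3 probe sets. The remaining eIF2 kinases on the list did not pass on their brightest probe sets, although 1 of the 5 probe sets of Eif2ak1 was lower.

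Regulators of the cap-binding branch were mixed. Mknk2, a kinase of eIF4E, rose by 0.47 and its paralog Mknk1 fell by 0.37. Mknk2 was higher on 2 of 2 probe sets and Mknk1 lower on 1 of 3. Pdcd4, an inhibitor of eIF4A, rose by 0.35, and Akt1 rose by 0.26. Akt1 was higher on 2 of 4 probe sets, and the methods' t-test did not call Pdcd4. Tsc1 and Tsc2, which restrain mTOR through Rheb, fell by 0.36 and 0.30, and Rheb itself fell by 0.28. Tsc1 was lower on 2 of 3 probe sets, and the methods' t-test did not call Tsc2. Dhx29, a helicase of scanning ribosomes, fell by 0.46, and Denr, a factor of reinitiation, by 0.40. Each was lower on 1 of 2 probe sets. Among regulators that did not pass on the brightest, Ddx3x was higher on 2 of 3 probe sets. Rps6 and Pabpc1 were higher on 1 of 2, and Paip1 was lower on 1 of 4. Of 10 measured elongation and release factors 0 were higher and 2 were lower by limma (1 higher at an unadjusted p under 0.05, and 2 higher by the methods' t-test), a share near the 22.8% of all genes. All 10 lay above the median level, where 33.5% of probe sets passed in either direction. The lower ones were the release factors Etf1, which fell by 0.65, and Gspt2, which fell by 0.33. Etf1 was lower on 3 of 6 probe sets and Gspt2 on 1 of 2, and the methods' t-test did not call Gspt2. On their brightest probe sets the others on that list lay between -0.13 and 0.17 and did not pass, although 3 of the 6 probe sets of the release factor Gspt1 and 1 of the 4 of the elongation factor Eef1d were higher.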

How the data were processed

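For each of 6 arrays the authors deposited a table with log2 values for 45101 probe sets. The submitters' processing notes name RMA; no version is given in the sources used here. RMA subtracts background, equalises the distribution of values between arrays and combines the probes of a set, which hides any change common to most transcripts and shrinks small ratios. After 64 control probe sets were set aside, 45037 entered a two-sided limma fit without block or filter (version 3.58.1, R 4.3.3). P-values were adjusted by Benjamini-Hochberg across this whole set, and 0.05 was the threshold. The platform annotation gives 34945 probe sets 1 gene symbol, 932 several and 9160 none, so these are unnamed here. All 120 probe sets with a single initiation factor symbol were used, and 6 with a second symbol and 13 of Eif2ak kinases were left out. The brightest probe set of a gene had the highest mean over the 6 arrays. For each of 16752 other probe sets of the array, its value minus that of the brightest on the same array was fitted the same way. Both fits were tested on simulated data.

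The members, gene lists and tests were chosen with earlier results of these data known, and the study named a pathway of these factors from these samples. Values are given for genes with a called probe set and genes with a probe set that differed from the brightest. Genes that the study labels in its volcano plot, and paralog pairs, are given where a probe set was annotated to them alone. Eif1, Eif2s1 and Eif4g1 had no such probe set and have no values. The number of arrays limits the precision, with a median SD of 0.053 within a subgroup for these probe sets. Alternatives were a replicate block, 4 other scalings (quantile, median centring, cyclic loess, poly-A controls), a filter at the median level, other variance priors, array weights, the methods' t-test, other choices of probe set, and leaving out each array. Plots came from matplotlib 3.10.9 (Python 3.11.15).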

Additional observations from a re-analysis of the deposited data

How the results depend on the processing

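With a replicate block, the lower probe sets numbered 13, the higher and lower genes 1 and 8, and the probe sets that differed from the brightest of their gene 10. Calls over all probe sets fell from 8513 to 5793 in that fit. The labels do not say whether the replicate numbers pair the arrays. Arrays with the same number deviated from their subgroup means with r of -0.138, 0.028 and -0.136 across probe sets. Not every array correlated best with its own number. These correlations cannot decide whether the arrays are paired, since the deviations may be array noise alone. Scaling to the poly-A controls made 120 probe sets higher and 0 lower, and 43 genes higher and 0 lower. These counts are not particular to initiation factors, since calls over all probe sets rose from 8513 to 44740 of 45037 under this scaling. The called probe sets that turned under it read 0.50 and 0.68 for Eif1ad, 0.67 and 0.73 for Eif2d, 0.64, 0.62 and 0.47 for Eif2s2, 0.44 for Eif2b3, 0.64 and 0.53 for Eif3a, 0.60 and 0.71 for Eif3c, 0.60 for Eif3d, 0.60 and 0.67 for Eif4ebp1, 0.68 for Eif4enif1, 0.70, 0.66 and 0.30 for Eif4g2, 0.70 for Eif4g3, 0.30 and 0.30 for Eif5, 0.53 for Eif5b, 0.69 for Eif5a2 and 0.67 for Eif6, and the brightest probe sets of Eif1a, Eif2s3y and Eif4a2, which had not passed, read 0.68, 0.86 and 0.91. A variance prior with a trend gave 38 lower probe sets, median centring 1 higher gene, and the second brightest probe set 5 higher genes. Over all probe sets the prior with a trend gave 10960 calls, against 8513 in the main fit. Leaving out each array gave 10 to 11 higher and 14 to 21 lower probe sets, 1 to 1 higher and 9 to 11 lower genes, and 10 to 16 probe sets that differed from the brightest. Calls over all probe sets numbered 5319 to 7880 in these runs. Of the 39 calls, 36 held with quantile normalization, 36 with cyclic loess, 35 with median centring, 39 with array weights and 33 with the methods' t-test. The calls that the t-test did not keep were 1448820_a_at (Eif2s2), 1456083_x_at (Eif3c), 1450909_at (Eif4e), 1455108_at (Eif4e2), 1417084_at (Eif4ebp2) and 1438256_at (Eif5a2). The causes of these shifts were not tested, and the number of arrays limits what can be seen.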
